A study of Mus musculus with 10 samples.

Results

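The genes described here are the FGF ligands, their receptors, and the genes that adapt, restrain or report FGF signalling, in mouse fibroblasts being reprogrammed to pluripotency. Members were chosen by symbol alone: Fgf followed by a number, Fgfr1 to Fgfr4, Fgfrl1, and the numbered Spry, Spred, Dusp4 to Dusp6, Etv1, Etv4, Etv5, Frs2 and Frs3 genes with a protein-coding transcript. This gave 41 of 45706 genes, namely 22 ligands, 5 receptors, 3 Sprouty genes, 3 Spred genes, 3 Dusp phosphatases, 3 Etv factors and 2 Frs adaptors. Of the 41, 38 had enough reads to be tested and 3 ligands (Fgf6, Fgf8 and Fgf22) did not.

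FGF ligands are signalling proteins that, together with heparan sulfate, bring receptor tyrosine kinases of the Fgfr family together at the cell surface. The activated receptor phosphorylates Frs docking adaptors and passes the signal through Ras to the kinase ERK, and ERK activity induces the transcription factors Etv4 and Etv5 together with inhibitors of the same route, the Sprouty and Spred proteins and the Dusp phosphatases. In pluripotent mouse cells Fgf4 is the best known ligand and drives ERK signalling that prepares cells to leave the pluripotent state, whereas Fgf2, Fgf7 and Fgf10 are ligands made by fibroblasts and other mesenchymal cells.

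RNA was sequenced (single reads of 50 nt from a stranded poly(A) kit) in 10 libraries, 2 for each of 5 groups. All groups had the mixed background C57BL/6 x 129. The fibroblasts (MEF) came from mice with an OKSM cassette (Oct4, Klf4, Sox2 and Myc) in Col1a1 and the doxycycline-dependent activator M2rtTA in Rosa26, and were kept unsorted in MEF medium with no doxycycline. The same genotype was induced with 1 µg/ml doxycycline and 50 µg/ml ascorbic acid in ESC medium (15% serum, 1000 U/ml LIF) and taken unsorted at day 3 (D3), or after sorting for SSEA+ cells at day 6 (D6) and day 9 (D9). The embryonic stem cells (ESC) were the single line V6.5, unsorted, in ESC medium and, per the labels' growth protocol, on irradiated feeder cells. MEF and D3 therefore differ in medium and, by the sex-linked transcripts given below, in the sex of the cells as well as in induction. D3 and D6 differ in sorting as well as time. D9 and ESC differ in cell line and genotype, sex-linked transcripts, sorting, doxycycline, ascorbic acid and feeder cells, so ESC is a reference and not a later time. Within each contrast these cannot be told apart. The labels do not say whether the libraries of a group came from separate embryos or cultures, so the p-values measure the spread between these libraries.

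Depth ran from 29585876 to 38275024 estimated reads per library, and the fitted biological coefficient of variation was 3.75%. All 10 fibroblast markers exceeded 1 CPM (TMM-scaled read counts relative to library size) in MEF, at D3 and in ESC. All 8 pluripotency markers did so at D9 and in ESC, so this threshold did not set the labels apart. By summed level, the fibroblast markers were highest in MEF and the pluripotency markers in ESC, matching both labels. The fibroblast markers summed to 49232 and 47805 CPM in MEF, 3709 and 3700 CPM at D3, 159 and 154 CPM at D6, 67.6 and 74.0 CPM at D9, and 4252 and 4395 CPM in ESC. In ESC each of the 10 stood at 2.87% to 14.0% of its MEF level, and the summed level at 8.91%. Xist, transcribed from the inactive X chromosome of female cells, stood at 0.766 CPM in MEF, 1010 CPM at D3, 1304 CPM at D6, 1075 CPM at D9 and 10.2 CPM in ESC. The Y-linked gene Ddx3y stood at 88.5, 0.0713, 0.164, 0.0987 and 26.5 CPM in the same order. The MEF libraries thus had the transcripts of male cells and the induced libraries those of female cells. The contrast of MEF with D3 therefore also compares cells of different sex, and so of different embryos. ESC also differed from D9 in both transcripts. Of the members, Fgf13 and Fgf16 are X-linked.

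The members were called more often than tested genes at large in 4 of the 5 comparisons, and about as often from D6 to D9. No test of this was made. Member shares are of all 41, including 3 not tested, while the background holds tested genes only. The member shares are therefore slightly understated. A gene was called where the edgeR quasi-likelihood adjusted p was under 0.05 and the absolute log2 fold change at least 1. From MEF to D3, 14 members were called higher and 7 lower, 51.2% of the 41, beside 14.6% of 20165 tested genes called higher and 14.5% lower (29.1% in all). From D3 to D6, 4 were called higher and 9 lower, 31.7% of the members, where 9.26% and 10.2% of all tested genes were called (19.5% in all). From D6 to D9, 1 was higher (Fgf17) and 2 lower (Fgf16 and Fgfr3), a share of 7.32% close to the background of 7.87% (5.18% higher and 2.68% lower). Fgf16 lost its call with DESeq2 (adjusted p = 0.0874), with the replicate block (edgeR adjusted p = 0.0547) and without any D6 or D9 library (0.0730 to 0.198), and limma on log2(TPM + 1) called none of the 3. Between D9 and ESC, 12 were higher in ESC and 10 lower against 18.6% and 14.3% of tested genes (53.7% of members and 32.9% of genes in all), and between MEF and ESC 13 were higher and 14 lower against 25.5% and 20.6% (65.9% and 46.1% in all). The median log2 fold change of the tested members was 0.12 from MEF to D3 (0.08 over all tested genes), -0.23 from D3 to D6 (0.03), -0.16 from D6 to D9 (0), -0.22 between D9 and ESC (0.0050) and 0.04 between MEF and ESC (0.10).

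**Figure D1:**
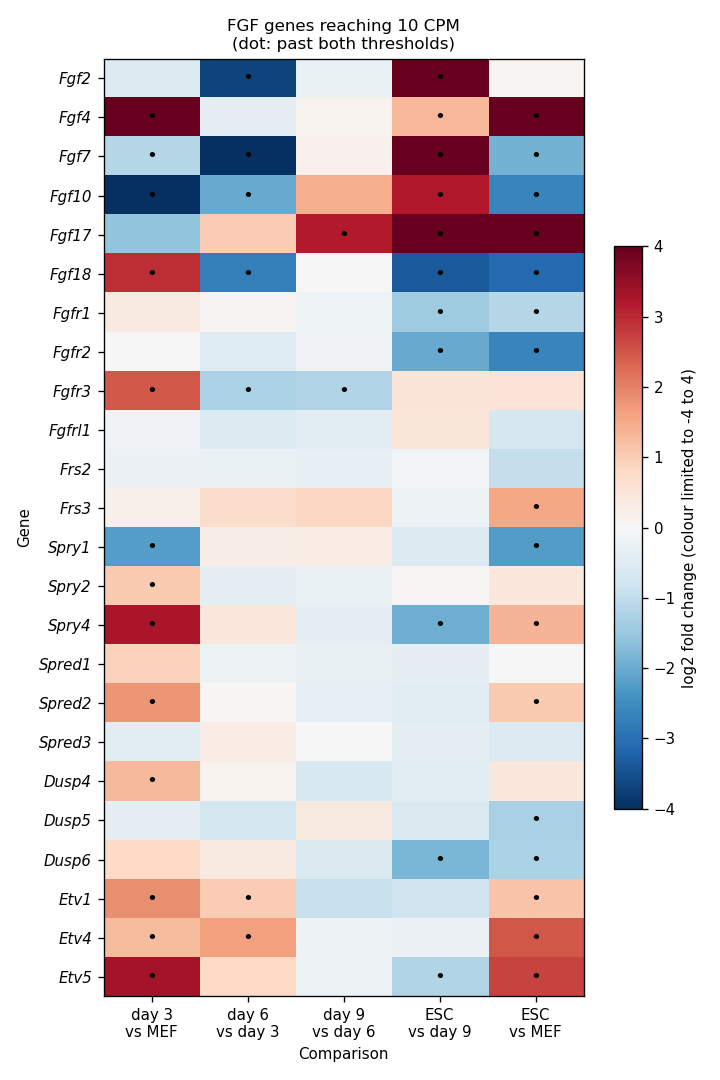
Colour gives the log2 fold change of the 24 FGF genes that reached 10 CPM in some group, in each of 5 comparisons, and a dot marks genes past both thresholds. The Etv and most Sprouty and Spred rows are red from MEF to day 3, and Fgf2, Fgf7 and Fgf10 are blue from day 3 to day 6 and red for ESC against day 9, while against MEF Fgf7 and Fgf10 are blue in ESC. Colours for Fgf4 against MEF rest on 3 MEF reads.

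Fgf4, the ligand of early embryonic and pluripotent cells, was the ligand with the widest range. It stood at 0.0369 and 0.0610 CPM in the MEF libraries, 96.5 and 92.1 CPM at D3, 72.6 and 71.9 CPM at D6, 79.1 and 79.8 CPM at D9 and 202 and 201 CPM in ESC. Every induced and ESC library lay far above both MEF libraries, and both ESC libraries lay above all others. The pluripotency markers summed to only 5.98 and 6.98 CPM at D3, beside 3975 and 4061 CPM in ESC. With 3 reads in the MEF libraries together, D3 exceeded MEF by a ratio of 1884 (95% counting interval 644 to 9138). D6 was lower than D3 by less than the fold minimum (log2 fold change -0.38 ± 0.037 SE, edgeR adjusted p = 5.6e-07), and Fgf4 was higher in ESC than at D9 (log2 fold change 1.34 ± 0.035 SE, edgeR adjusted p = 2.18e-13).

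The gene lies at chr7:144847367-144865243 on the plus strand (GRCm38), and its 3′ untranslated region is known to carry a composite element bound by Sox2 and Oct4, both encoded by the cassette. The sequence is shown because Fgf4 had the widest range of the ligands. A search of GENCODE M21 transcripts on both strands for CTTTGTT, any 3 bases, ATGC, any base and AAT found it in 1 of 58797 protein-coding transcripts, at chr7:144864394-144864411 (+). In the run, capitals mark the SOX and POU letters; the pattern was written around the known element, so its rarity was partly built in, and no binding was measured here.
Fgf4 element: CTTTGTTtggATGCTAAT

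Fgf4 sits between 2 other ligand genes, Fgf3 and Fgf15, at gaps of 2.9 and 31.3 kb with no protein-coding gene between. Neither neighbour was at 1 CPM in any induced library. Fgf3 had no read in MEF, 0.323 and 0.532 CPM at D3, 0.0294 and 0.121 CPM at D6, 0.0321 and 0.0253 CPM at D9 and 2.09 and 2.27 CPM in ESC. Fgf15, a gut hormone that signals to the liver in the adult, had no read in any MEF or induced library. In ESC it stood at 8.34 and 8.60 CPM, at least 199.7-fold above D9 with a floor of 3 reads over the group.

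Fgf17, a member of the Fgf8 subfamily, was near absent until D9. Its level was 0.0739 and 0.183 CPM in MEF, 0 and 0.0887 CPM at D3, 0.176 and 0 CPM at D6, 0.707 and 0.934 CPM at D9 and 18.1 and 17.9 CPM in ESC. Both D9 libraries lay above all earlier ones and both ESC libraries above D9. It rose from D6 to D9 (log2 fold change 3.16 ± 0.63 SE, edgeR adjusted p = 0.0012) and was higher in ESC than at D9 (log2 fold change 4.43 ± 0.31 SE, edgeR adjusted p = 1.05e-08). With limma on log2(TPM + 1) the first of these was 0.28, under the fold minimum.

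Fgf18, which acts in skeletal and lung development, was high at D3 alone among the 5 groups. It stood at 4.43 and 4.18 CPM in MEF, 33.3 and 33.9 CPM at D3, 5.32 and 4.87 CPM at D6, 5.46 and 4.77 CPM at D9 and 0.589 and 0.401 CPM in ESC. The D3 libraries overlapped no other group. The rise from MEF was 7.81-fold (log2 fold change 2.97 ± 0.10 SE, edgeR adjusted p = 4.23e-12) and the fall to D6 6.59-fold (log2 fold change -2.72 ± 0.10 SE, edgeR adjusted p = 1.43e-11). Per length, Fgf18 was the most abundant ligand at D3, at 20.7 TPM beside 15.8 TPM for Fgf4.

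The ligands of fibroblasts fell during induction and were present again in ESC. Fgf2 stood at 26.7 and 24.2 CPM in MEF, 17.4 and 17.6 CPM at D3, 1.29 and 1.36 CPM at D6, 0.868 and 1.29 CPM at D9 and 25.7 and 27.6 CPM in ESC. MEF and ESC overlapped, and D6 and D9 lay below all other libraries. It fell from D3 to D6 (log2 fold change -3.72 ± 0.13 SE, edgeR adjusted p = 7.83e-12), was higher in ESC than at D9 (log2 fold change 4.59 ± 0.12 SE, edgeR adjusted p = 2.79e-13), and between ESC and MEF the log2 difference was 0.07 ± 0.079 (SE).

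Fgf7, a ligand of the epithelial form of Fgfr2, fell in both early steps. It stood at 39.2 and 35.1 CPM in MEF, 16.7 and 17.2 CPM at D3, 0.176 and 0.151 CPM at D6, 0.257 and 0.126 CPM at D9 and 9.93 and 10.04 CPM in ESC. D6 and D9 overlapped each other and lay below all other libraries. The D3 to D6 fall was 101-fold (log2 fold change -6.66 ± 0.18 SE, edgeR adjusted p = 6.92e-13) and the fall from MEF to D3 was 2.19-fold (log2 fold change -1.13 ± 0.079 SE, edgeR adjusted p = 1.07e-08), which scaling by library size alone left just under the fold minimum, at -0.93.

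Fgf10, the partner ligand of the same receptor form, fell earlier. It stood at 11.4 and 13.3 CPM in MEF, 0.215 and 0.414 CPM at D3, 0.0882 and 0.0605 CPM at D6, 0.225 and 0.202 CPM at D9 and 1.94 and 2.03 CPM in ESC. MEF lay above every other library, and ESC lay above the 3 induced groups. The fall from MEF to D3 was 39.3-fold (log2 fold change -5.30 ± 0.26 SE, edgeR adjusted p = 2.25e-10); the further fall to D6 (log2 fold change -2.01 ± 0.52 SE, edgeR adjusted p = 0.00466) was not called without D3 replicate 2 (-1.50, edgeR adjusted p = 0.102), nor by limma on log2(TPM + 1) (-0.04, adjusted p = 0.437) or log2(TPM + 0.1) (-0.34, adjusted p = 0.0645). In ESC the means of Fgf2, Fgf7 and Fgf10 were 104.7%, 26.9% and 16.1% of MEF, beside 2.87% to 14.0% for the fibroblast markers. The part of feeder cell RNA in these ESC values was not tested, and in bulk samples fewer cells of a type cannot be told apart from less RNA per cell.

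**Figure D2:**
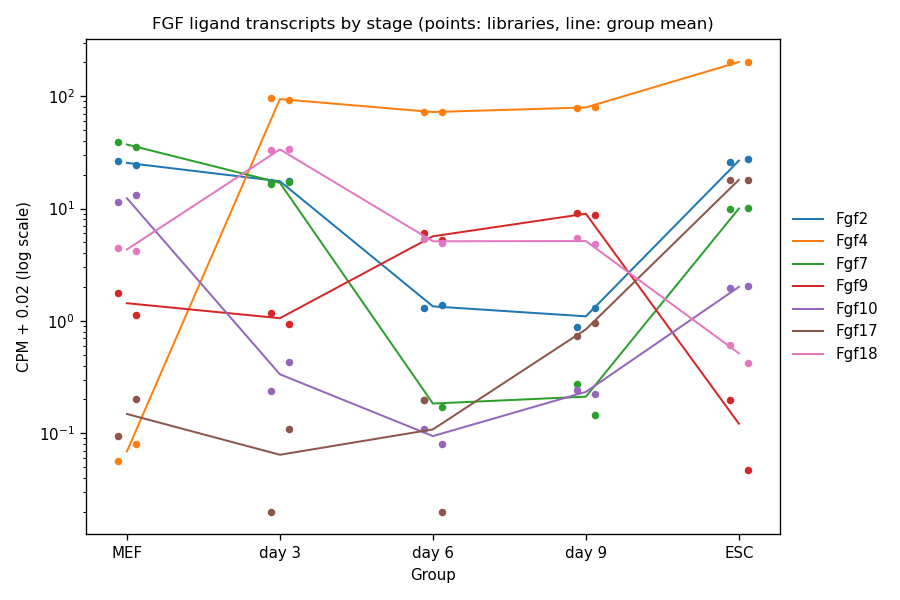
CPM plus 0.02 on a log axis for 7 ligands, with a point for each library and a line through group means. Fgf4 rises at day 3 and stays the highest ligand in CPM from then on, Fgf18 is highest at day 3, and Fgf2, Fgf7 and Fgf10 are low at days 6 and 9 and higher again in ESC.

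The other 13 tested ligands stayed under 10 CPM in every group mean. Their calls rest on unequal numbers of reads, from 633 for Fgf9 at D9 to 5 for Fgf16 in MEF in the higher group of a comparison. Fgf9 reached its highest level at D9, 9.16 and 8.79 CPM, from 1.74 and 1.10 CPM in MEF, and was 0.177 and 0.0267 CPM in ESC; it rose from D3 to D6 (log2 fold change 2.44 ± 0.26 SE, edgeR adjusted p = 1.85e-06). Fgf16, on the X chromosome, was highest at D6 (2.65 and 2.57 CPM) and had no read in ESC, a group that also differed from D6 in sex-linked transcripts. Fgf1 was highest in ESC, at 5.04 and 4.97 CPM beside 0.771 and 0.783 CPM at D9. Fgf21, an endocrine ligand of metabolism, stood at 1.88 and 2.23 CPM in MEF and had no read at D3 or D6. Fgf20 and Fgf23 had their highest means at D3, and the intracellular FGFs Fgf12, Fgf13 and Fgf14, which bind sodium channels and not Fgfr receptors, had theirs in MEF, whereas Fgf11, of the same subfamily, had its highest mean in ESC.

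Fgfr1 was the most abundant receptor in every group, with 71.0% to 86.1% of the summed receptor TPM. It stood at 323 and 323 CPM in MEF, 417 and 412 CPM at D3, 445 and 441 CPM at D6, 387 and 397 CPM at D9 and 146 and 146 CPM in ESC. The ESC libraries lay below all others, with 2.68-fold less than D9 (log2 fold change -1.42 ± 0.03 SE, edgeR adjusted p = 1.97e-14). The ESC to MEF difference of -1.14 was under the fold minimum with library-size scaling (-0.80) and with limma on TPM.

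Fgfr2 was lowest in ESC. It stood at 39.0 and 40.1 CPM in MEF, 41.2 and 39.0 CPM at D3, 27.8 and 28.2 CPM at D6, 24.5 and 26.2 CPM at D9 and 6.54 and 6.12 CPM in ESC. MEF and D3 overlapped, and ESC lay below all others, at 4.02-fold less than D9 (log2 fold change -2.01 ± 0.07 SE, edgeR adjusted p = 4.86e-12). Fgfr3 was highest at D3: 2.18 and 1.86 CPM in MEF, 10.7 and 11.7 CPM at D3, 4.41 and 4.93 CPM at D6, 2.25 and 1.87 CPM at D9 and 2.83 and 3.04 CPM in ESC. The D3 libraries overlapped no other group; the rise was 5.56-fold (log2 fold change 2.47 ± 0.16 SE, edgeR adjusted p = 5.12e-09), and the 2 later falls were not called by limma on log2(TPM + 1) (adjusted p = 0.0572 and 0.125) or log2(TPM + 0.1) (0.0643 and 0.0704). Fgfrl1, which lacks the kinase domain, was not called in any comparison, and Fgfr4 was higher in ESC than at D9, at 1.89 and 2.46 CPM.

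Fgfr1 and Fgfr2 each carry a pair of mutually exclusive exons, IIIb and IIIc, that encode part of the ligand-binding domain; the IIIb form of Fgfr2 is typical of epithelia and binds Fgf7 and Fgf10, and the IIIc form is typical of mesenchyme. The shares below count reads of transcripts that hold exactly 1 exon of the pair in GENCODE M21 (GRCm38).

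Fgfr1 was mostly of the IIIc form in all groups. The IIIb share was 15.7% and 14.2% in MEF, 20.4% and 12.3% at D3, 12.1% and 15.8% at D6, 30.7% and 24.8% at D9 and 17.1% and 13.3% in ESC. Both D9 libraries lay above all others. At D9 the share of Fgfr1 reads on retained-intron transcripts was also the highest, at 17.7% ± 0.134 (SD, n = 2) beside 7.14% ± 0.0766 in MEF and 12.4% ± 0.837 at D6, and informative reads were the smallest part of the gene's reads, at 72.2% and 72.9% beside 84.5% and 85.8% in MEF; their part in the D9 share was not tested. The IIIb level itself was 12.9 ± 1.71 TPM at D9 and 9.96 ± 3.19 TPM at D3 (SD, n = 2), while IIIc was 25.9 ± 2.15 TPM at D9 and 40.2 ± 2.36 TPM at D6, and the IIIb levels of the D3 and D9 libraries overlapped. For Fgfr2 the share was 10.2% and 9.51% in MEF, 11.8% and 4.99% at D3, 10.7% and 15.4% at D6, 16.9% and 18.9% at D9, and 26.6% and 15.2% in ESC on 52.0 and 66.7 informative reads. The D9 libraries overlapped ESC and lay above the earlier groups. The Fgfr2 IIIb level did not rise, at 0.460 ± 0.0228 TPM in MEF and 0.344 ± 0.151 TPM at D9 (SD, n = 2). Fgfr2 IIIc was 2.55 ± 0.0302 and 0.857 ± 0.274 TPM. Informative reads were 52.8% and 52.6% of Fgfr2 reads in MEF, 29.0% and 41.8% at D9 and 23.4% and 29.1% in ESC. Epithelial markers summed to 1339 and 1390 CPM at D9, from 15.2 and 17.9 CPM in MEF, yet IIIb remained the minority form of both receptors among informative reads. No test was made. Outside MEF, replicate shares of Fgfr1 differed by more than their 95% Wilson intervals, as at D3 (19.7% to 21.1% and 11.7% to 12.9%). In those groups the spread between libraries exceeded counting error. The intervals overlapped narrowly for Fgfr1 in MEF, and for Fgfr2 in every group but D3. Fgfr3 shares could not be read, with 99.9% and 0.879% in the MEF libraries.

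**Figure D3:**
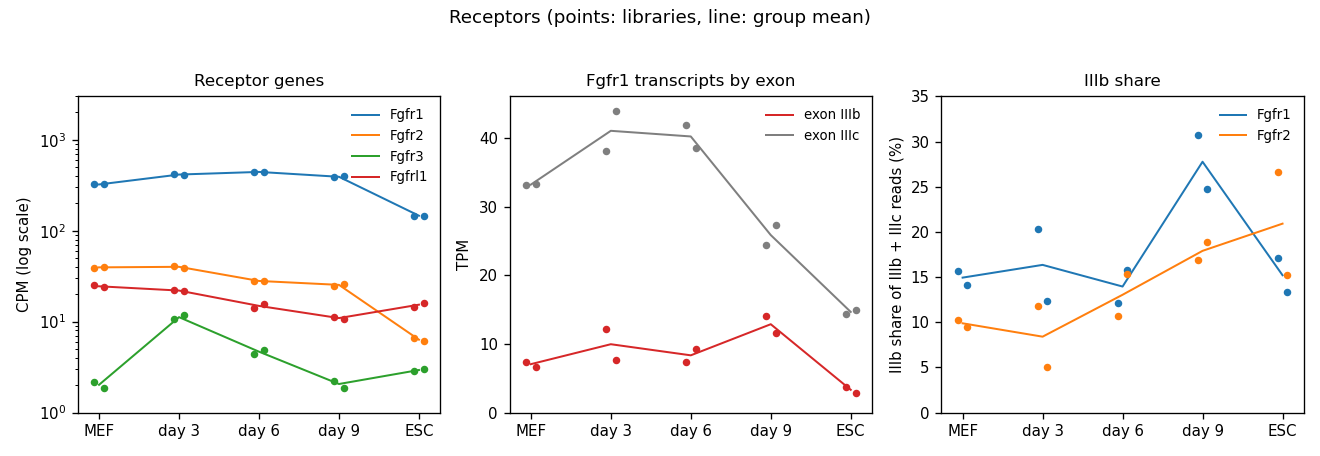
Left, receptor CPM on a log axis; middle, TPM of Fgfr1 transcripts with exon IIIb or IIIc; right, the IIIb share of informative reads, with a point per library and lines through group means. The Fgfr1 share is highest at day 9 (30.7% and 24.8%), where IIIc TPM is lower than at day 6.

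The inhibitors and Etv factors mostly rose at D3. Of the 12 Sprouty, Spred, Dusp and Etv genes, 7 were called higher and 1 lower from MEF to D3, with a median log2 fold change of 1.16 beside 0.08 for all tested genes; 66.7% were called, beside 29.1% of all tested genes. From D3 to D6 2 were higher and none lower, 16.7% beside a background of 19.5%. From D6 to D9 none was called by edgeR, where the background was 7.87%, although 11 passed the adjusted p below the fold minimum. Between D9 and ESC none was higher in ESC and 3 were lower, 25.0% beside 32.9%. Against MEF, ESC had 5 higher and 3 lower, 66.7% beside 46.1%. The highest mean of 7 of the 12 fell at D6, of 2 at D3 and of 3 in MEF; none peaked at D9 or in ESC.

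Spry4, an inhibitor of the Ras to ERK route, moved furthest of the inhibitors. It stood at 14.1 and 13.0 CPM in MEF, 131 and 130.0 CPM at D3, 177 and 175 CPM at D6, 136 and 137 CPM at D9 and 34.0 and 36.2 CPM in ESC. All induced libraries lay above ESC, and ESC above MEF. The rise was 9.61-fold (log2 fold change 3.26 ± 0.049 SE, edgeR adjusted p = 5.93e-16) and the level in ESC 3.89-fold below D9 (log2 fold change -1.96 ± 0.042 SE, edgeR adjusted p = 2.08e-14). Spry2 stood at 37.4 and 39.2 CPM in MEF, 76.7 and 81.7 CPM at D3, 58.6 and 61.7 CPM at D6, 48.0 and 52.8 CPM at D9 and 51.9 and 51.7 CPM in ESC. Its D3 libraries were the highest; the rise (log2 fold change 1.05 ± 0.055 SE, edgeR adjusted p = 4.69e-10) was just under the fold minimum with DESeq2, at 0.92. Spry1 went the other way, from 74.7 and 72.6 CPM in MEF to 15.8 and 15.9 CPM at D3, 18.8 and 19.0 CPM at D6, 22.0 and 23.9 CPM at D9 and 16.0 and 15.4 CPM in ESC. MEF lay above all other libraries, by 4.65-fold over D3 (log2 fold change -2.22 ± 0.054 SE, edgeR adjusted p = 9.42e-14).

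Among the Spred genes, which bind Ras regulators, Spred2 rose from 32.5 and 31.6 CPM in MEF to 106 and 111 CPM at D3, and stood at 114 and 115 CPM at D6, 88.8 and 93.1 CPM at D9 and 68.9 and 64.2 CPM in ESC. MEF lay below all others (log2 fold change 1.76 ± 0.049 SE, edgeR adjusted p = 3.66e-13). Spred1 differed by 0.93 from MEF to D3, under the fold minimum, and Spred3 by -0.43.

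The Dusp genes encode phosphatases that remove the activating phosphates of ERK and related kinases. Dusp6, the cytoplasmic ERK phosphatase, stood at 114 and 116 CPM in MEF, 204 and 195 CPM at D3, 255 and 255 CPM at D6, 169 and 169.9 CPM at D9 and 47.3 and 48.5 CPM in ESC. The groups did not overlap, D6 was highest and ESC lowest, and ESC lay 3.54-fold below D9 (log2 fold change -1.82 ± 0.036 SE, edgeR adjusted p = 1.14e-14). Dusp4, a nuclear phosphatase, rose from 24.0 and 23.0 CPM in MEF to 57.9 and 58.1 CPM at D3 (log2 fold change 1.31 ± 0.051 SE, edgeR adjusted p = 1.6e-11), and stood at 65.8 and 61.8 CPM at D6, 42.1 and 41.4 CPM at D9 and 30.6 and 31.6 CPM in ESC. Its libraries at D6 were the highest and those of MEF the lowest. Dusp5, nuclear and specific to ERK, stood at 56.7 and 51.8 CPM in MEF, 45.4 and 38.8 CPM at D3, 25.0 and 26.6 CPM at D6, 30.6 and 34.8 CPM at D9 and 22.0 and 22.1 CPM in ESC. It was called only between ESC and MEF (log2 fold change -1.29 ± 0.082 SE, edgeR adjusted p = 2.18e-09), and not with library-size scaling (-0.95).

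The 3 Etv factors, ETS-domain activators used as reporters of FGF signalling, rose from MEF to D3. Etv5 stood at 25.1 and 26.4 CPM in MEF, 260.0 and 257 CPM at D3, 458 and 445 CPM at D6, 387 and 397 CPM at D9 and 167 and 172 CPM in ESC. The 5 groups did not overlap, with MEF lowest and D6 highest. The rise to D3 was the largest of the 12 inhibitor and Etv genes (log2 fold change 3.32 ± 0.041 SE, edgeR adjusted p = 8.87e-17) and ESC was 2.31-fold below D9 (log2 fold change -1.21 ± 0.034 SE, edgeR adjusted p = 3.81e-13), a difference just under the fold minimum with limma (-0.98). Etv4 stood at 19.1 and 19.6 CPM in MEF, 46.3 and 47.7 CPM at D3, 145 and 147 CPM at D6, 122 and 129 CPM at D9 and 106 and 109 CPM in ESC. Its larger step came from D3 to D6 (log2 fold change 1.63 ± 0.041 SE, edgeR adjusted p = 2.84e-13), after a rise of 2.43-fold to D3 (log2 fold change 1.28 ± 0.051 SE, edgeR adjusted p = 1.97e-11), and the groups did not overlap. Etv1 stood at 5.98 and 5.85 CPM in MEF, 20.6 and 22.0 CPM at D3, 42.5 and 42.9 CPM at D6, 23.6 and 22.3 CPM at D9 and 13.3 and 12.9 CPM in ESC. D6 lay above all other libraries; the D3 rise was 3.60-fold (log2 fold change 1.85 ± 0.074 SE, edgeR adjusted p = 2.21e-11), and the 2.01-fold step to D6 sat at the fold minimum and fell under it with DESeq2 (0.98) and 5 other kinds of setting.

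**Figure D4:**
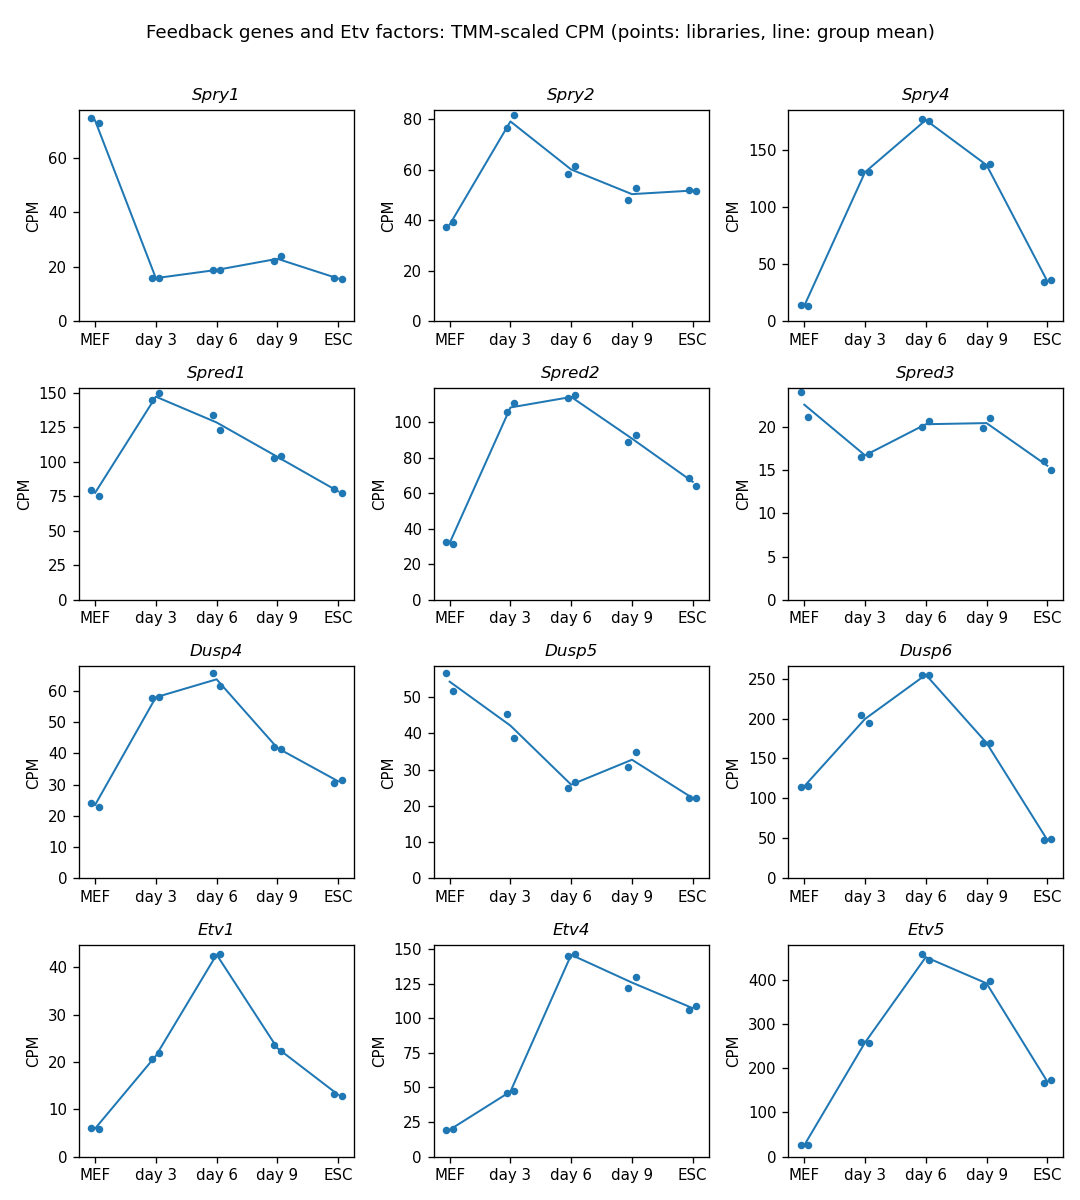
CPM of the 12 Sprouty, Spred, Dusp and Etv genes on linear axes from 0, with a point per library and a line through group means. Spry4, Dusp4, Dusp6, Spred2, Etv1, Etv4 and Etv5 are highest at day 6, and Spry1 is highest in MEF.

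Promoter sequence was available in RefSeq (GRCm38.p6) for 31 of the 41 members and for 4 of the 7 inhibitor and Etv genes that rose at D3. These 4 genes were searched because they rose together. Only their starts with a match to SOX, octamer or KLF letters are printed, so the matches shown were part of the choice. No motif of Myc, the remaining cassette factor, was searched. Each run is the 250 bases before the start, with capitals for SOX (CTTTGT), octamer (ATGCAAAT) or KLF (GGGNGGGG) letters on either strand. The places of the printed runs are chr16:22438369-22438618 (-) for Etv5, chr11:19924192-19924441 (+) for Spred2 and chr14:105896820-105897069 (-) for Spry2. Etv1, and a second Etv5 start, held none of the 3.
Etv5: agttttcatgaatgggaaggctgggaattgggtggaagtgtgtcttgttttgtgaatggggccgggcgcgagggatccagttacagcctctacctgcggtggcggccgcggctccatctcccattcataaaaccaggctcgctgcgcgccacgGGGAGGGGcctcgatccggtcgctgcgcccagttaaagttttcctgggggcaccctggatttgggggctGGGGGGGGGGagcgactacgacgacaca
Spred2: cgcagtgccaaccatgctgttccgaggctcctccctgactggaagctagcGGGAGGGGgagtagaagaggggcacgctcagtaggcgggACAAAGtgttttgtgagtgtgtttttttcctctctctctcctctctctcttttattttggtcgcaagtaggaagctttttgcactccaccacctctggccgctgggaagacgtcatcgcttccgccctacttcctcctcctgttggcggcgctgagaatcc
Spry2: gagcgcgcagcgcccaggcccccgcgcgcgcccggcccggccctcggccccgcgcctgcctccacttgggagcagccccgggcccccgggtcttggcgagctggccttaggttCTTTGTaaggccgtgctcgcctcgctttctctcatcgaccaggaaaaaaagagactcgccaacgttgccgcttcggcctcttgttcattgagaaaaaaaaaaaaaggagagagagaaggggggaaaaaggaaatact
Over windows from 250 bases before to 50 after the start, the SOX letters were in 17.5% of 40 member promoters and 18.7% of all 32851, the octamer in 2.5% and 1.74%, and KLF in 50.0% and 33.2%. Of 8 motifs searched, the others gave 15.0% and 14.9% for ETS (CCGGAA), 5.0% and 7.81% for AP-1 (TGANTCA), 0 and 1.79% for CRE (TGACGTCA), 40.0% and 17.6% for SP (GGGCGGGG, contained in KLF) and 90.0% and 73.3% for SRF, searched loosely as CC and GG at a fixed spacing. These are matches of letters, with no test and no binding measured.

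Of the adaptors, Frs2, the main docking protein, stood between 38.3 and 77.2 CPM and was never called, and Frs3 stood at 3.62 and 3.69 CPM in MEF, 4.31 and 4.17 CPM at D3, 7.03 and 6.93 CPM at D6, 12.2 and 12.5 CPM at D9 and 9.96 and 11.3 CPM in ESC. D9 and ESC lay above the other groups, and Frs3 was higher in ESC than in MEF (log2 fold change 1.54 ± 0.11 SE, edgeR adjusted p = 1.06e-08), though under the fold minimum with limma on log2(TPM + 1), at 0.86.

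The other genes of the route were counted in 3 lists. Of 16 other ERK-responsive genes, 2 (Ccnd1 and Phlda1) were called higher and 9 lower from MEF to D3, with a median of -1.08, a share of 68.8% called beside 29.1% of all tested genes. These 9 included the immediate-early genes Egr1, at 1861 ± 36.0 CPM in MEF and 719 ± 55.3 CPM at D3 (SD, n = 2), Ier3 at 175 ± 1.48 and 36.6 ± 2.36 CPM, and Fosl1 at 17.1 ± 1.23 and 1.76 ± 0.362 CPM. Of 24 adaptors and Ras to ERK cascade genes, 1 was higher, the docking protein Gab1 (40.5 ± 0.849 to 109 ± 0.623 CPM), and 1 lower, the ERK-activating kinase Map2k1 (181 ± 3.44 to 54.4 ± 0.582 CPM), a share of 8.33%. Of 18 cofactors and heparan sulfate enzymes, 17 were tested. Among these 1 was higher and 5 lower, or 33.3% of the 18 listed, beside 29.1% of all tested genes. The lower ones included Hs6st1 (193 ± 3.79 to 49.0 ± 1.70 CPM), the extracellular sulfatase Sulf1 (389 ± 5.66 to 106 ± 1.00 CPM) and Flrt3 (31.0 ± 0.347 to 1.47 ± 0.0571 CPM).

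Between MEF and ESC, where 46.1% of all tested genes were called, 1 ERK-responsive gene was higher and 9 lower (62.5%), with Egr1 at 213 ± 2.40 CPM in ESC, Egr2 at 8.33 ± 0.194 beside 85.4 ± 1.27 CPM and Junb at 97.7 ± 8.41 beside 762 ± 11.4 CPM. In the cascade 2 were higher, Gab1 (280 ± 1.18 CPM in ESC) and the ERK-activated kinase Rps6ka1 (10.1 ± 0.971 to 123 ± 2.56 CPM), and 2 lower, among them Gab2 (22.0 ± 0.616 to 7.53 ± 0.310 CPM), 16.7% of the list. Of the cofactors and heparan sulfate enzymes 2 were higher and 10 lower (66.7% of the 18 listed, of which 17 were tested). The lower ones were led by Flrt3 (2.38 ± 0.409 CPM in ESC), Hs6st2 (148 ± 0.679 to 17.0 ± 1.16 CPM) and Flrt2 (242 ± 1.66 to 34.0 ± 2.02 CPM).

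**Figure D5:**
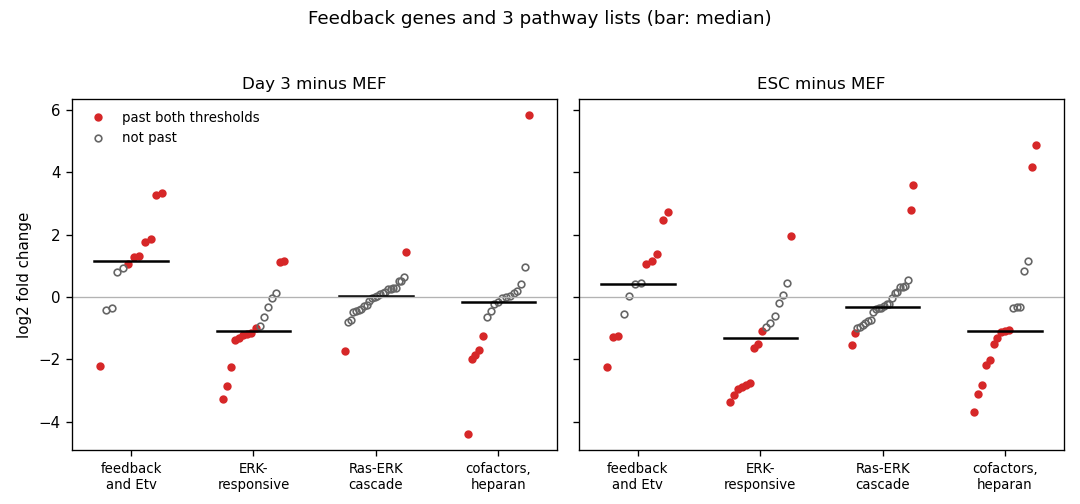
Log2 fold changes of the 12 feedback and Etv genes and of the tested genes of 3 pathway lists, day 3 minus MEF at left and ESC minus MEF at right, with filled points past both thresholds and bars at medians. At day 3 the feedback median is 1.16 and the ERK-responsive median -1.08.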

How the data were processed

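The authors deposited 1 table per library, and per the file headers each gives estimated counts and TPM for 109617 transcripts; Salmon 0.8.2 and mm10 are named in the submitters' processing notes, and the annotation release is not given in the sources used here. The deposited estimated counts are not normalized, and the deposited TPM values are scaled by transcript length. Counts were summed per gene and rounded. Genes passing filterByExpr (minimum count 10, minimum total 15) were fitted with TMM scaling and edgeR 4.0.16 (quasi-likelihood, R 4.3.3) over all 10 libraries, with Benjamini-Hochberg adjustment over 20165 genes. SE was derived from log2 fold change and F statistic. With 2 against 2 libraries an exact two-sided permutation test cannot go below 0.333, so values outside the fit have no test. Ratios against 1 to 3 reads carry an exact 95% counting interval, and a group at 0 takes a floor of 3 reads over the group; both cover counting error only.

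Members and lists were chosen with earlier results of these data known. Values in every library are given for members with a group mean of at least 10 CPM and a call in at least 1 comparison, and for some others chosen after their values were seen; of each pathway list, up to 3 called genes of at least 10 CPM with the largest change are named for D3 and ESC against MEF. The Fgf4 pattern, the promoter motifs and the promoters printed were also chosen after seeing the data. Exon annotation and gene positions are those of GENCODE M21 (GRCm38); 4 of 6 informative Fgfr1 transcripts and 14 of 15 of Fgfr2 had the same length there as in the tables. The exon sequences are not reported here. The alternatives were DESeq2 1.42.0, limma 3.58.1 on log2(TPM + 1) and log2(TPM + 0.1), no low-count filter, library-size scaling, only the groups compared, a replicate block, and leaving out each library. Replicates differed by more than counting noise (chi-square per degree of freedom 2.78 to 5.05), so none was merged.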

Additional observations from a re-analysis of the deposited data

How the results depend on the processing

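For the 20 members with a group mean of at least 10 CPM and a call, 508 of 538 alternative values of called differences kept their call, and 34 of 49 called differences kept it in all. The limma test on log2(TPM + 1) called fewer members: 10 higher and 4 lower from MEF to D3, 1 higher and 4 lower from D3 to D6, 0 and 0 from D6 to D9, 6 and 6 from D9 to ESC, and 7 and 6 between MEF and ESC. With log2(TPM + 0.1), limma called 4 lower from D3 to D6. The cause was not tested. Replicate numbers showed no pairing (correlations of same-numbered deviations -0.02 to 0.022); the replicate block, DESeq2 and leaving out any D6 or D9 library (1 to 1) each gave 1 member lower from D6 to D9 in place of 2 (Fgf16 was lost), and the block changed no other count. Library-size scaling moved the median of all genes to 0.29 from MEF to D3 and 0.44 from MEF to ESC.

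With limma on log2(TPM + 0.1), Fgf2 from D6 to D9 became a call (-1.93, adjusted p = 0.0223). Signs reversed for uncalled differences, namely Fgf18 from D6 to D9 (0.0096 with DESeq2, 0.016 by library size, 0.014 with only the groups compared, 0.0024 with the block, -0.097 to 0.098 without 1 library), Fgf2 from MEF to D3 (0.35 and 0.39 with limma) and to ESC (-0.010 with DESeq2, -0.0060 to 0.13 without 1 library), Fgf7 from D6 to D9 (-0.021 and -0.14 with limma, -0.37 to 0.64 without 1 library), Fgfr2 from MEF to D3 (-0.10 with DESeq2, -0.13 and -0.14 with limma, -0.044 with only the groups compared, -0.018 to 0.066 without 1 library), Fgfr3 from D9 to ESC (-0.046 and -0.11 with limma), Frs3 from MEF to D3 (-0.071 and -0.092 with limma), Fgf17 from D3 to D6 (-3.65 to 4.66 without 1 library) and Spry2 from D9 to ESC (-0.028 to 0.11 without 1 library). As a share of TPM, exon IIIb of Fgfr1 was 17.5% in MEF, 17.2% at D6, 33.3% at D9 and 18.4% in ESC, that of Fgfr2 15.3% in MEF, 13.5% at D3, 21.6% at D6 and 28.2% at D9, and that of Fgfr3 30.1% at D6.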

Other observations

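Several members, among them Fgf2, Fgf13, Fgf1 and Fgfr3, differed between replicates far more in TPM than in CPM. Fgf1 had 1.10 and 0.118 TPM at D9, where CPM was 0.771 and 0.783. Fgfr3 had 2.10 and 4.11 TPM at D3, where CPM was 10.7 and 11.7. In ESC Fgf2 had 18.4 and 9.84 TPM, where CPM was 25.7 and 27.6. Fgf2 had 6.42 and 15.9 TPM in the MEF libraries, where CPM was 26.7 and 24.2, and Fgf13 had 5.94 and 1.39 TPM at D3, where CPM was 4.25 and 4.97. The cause was not tested, and the order of Fgf2 among the ligands in MEF (11.2 ± 6.74 TPM beside 9.89 ± 1.79 for Fgf7, SD, n = 2) is within that spread.

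The epithelial markers were higher at D9 than in ESC (598 and 599 CPM), and the keratinocyte markers summed to 73.6 and 73.8 CPM at D9 and 12.3 and 12.1 CPM in MEF. Endothelial markers summed to 9.64 and 8.63 CPM in MEF, 133 and 130 CPM at D3, 133 and 128 CPM at D6, 77.4 and 78.6 CPM at D9 and 106 and 111 CPM in ESC. Their level was thus not particular to D3, and their part in the values of the FGF genes was not tested.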
